A study of Arabidopsis thaliana with 35 samples.

Results

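FLC (FLOWERING LOCUS C, AT5G10140) is a MADS-box gene on chromosome 5 of Arabidopsis thaliana whose protein represses flowering, and its silencing by long cold is the best known event of vernalization. It was taken by its identifier as 1 of 18779 genes in the deposited RNA table. All H3K27me3, H3K4me3 and H3K36me3 peaks that touch the gene were taken with it, 21 of 210769 peaks in 18 ChIP-seq libraries. All seedlings were Col-0 carrying a functional FRI allele, the activator that keeps FLC high before winter, and were raised at 22 °C under long days of 16 h light and 8 h dark. The groups were seedlings with no cold (NV), in the cold for 1 h, 1 d, 10 d, 20 d or 40 d, and given 40 d of cold and then 10 d of normal growth (T10). RNA was sequenced in all 7 groups and chromatin was profiled at NV, 40 d and T10, with 2 libraries each. The labels give neither the cold temperature nor the seedlings' ages, so cold and age cannot be told apart in any comparison with NV, and they do not say whether the 2 libraries of a group came from separate plants, so p-values measure the spread between libraries, which may be technical.

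Before winter the FRI complex and factors of active chromatin keep FLC transcribed, and H3K4me3 at its start and H3K36me3 along its body are marks of that state. In the cold, antisense transcripts (COOLAIR) and then the plant homeodomain protein VIN3, which acts with Polycomb repressive complex 2 (PRC2), are known to act on the gene. H3K27me3, the mark that PRC2 writes, is known to be laid down first in a small nucleation region near the start of the gene and to spread over the body after return to warmth. SOC1, FT and FD, which promote flowering, are known to be held down by FLC.

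FLC RNA fell late. It was not below its uncooled level at 1 h, 1 d, 10 d or 20 d of cold, fell by 1.05 on the log2 scale at 40 d, and fell by 1.57 at T10. At 10 d it rose by 0.60 above NV. The values below are RPM, reads per mega-read (M) of library size on the authors' own scaling, in the deeper and the shallower library of each group, which carry no replicate numbers and came from splitting the deposited averages into whole reads.

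Without cold FLC stood at 17.8 and 16.9 RPM. It stood at 22.0 and 18.6 after 1 h and at 19.1 and 20.9 after 1 d. These 3 groups lay close together, and the 1 h and 1 d libraries overlapped. At 10 d the values were 25.0 and 27.6, above every library of the other groups. At 20 d they were 18.2 and 20.8, again within the range of NV, 1 h and 1 d. At 40 d they were 9.51 and 7.26, and at T10 they were 6.03 and 5.03. All 4 libraries of 40 d and T10 lay below all 10 others, and the T10 libraries lay below those of 40 d. The shallower T10 library held only 29 FLC reads, with a 95% Poisson interval of 3.37 to 7.22 RPM that covers counting error only. The other 13 libraries held 192 to 1072 FLC reads.

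In order of the deposited group means, FLC was lowest at T10 (5.53), then at 40 d (8.38), NV (17.3), 20 d (19.5), 1 d (20.0) and 1 h (20.3), and highest at 10 d (26.3). The libraries of 20 d, 1 d and 1 h overlapped and have no order among them. The labelled tissue is whole seedlings, so a lower level in bulk RNA cannot be told apart from fewer cells that express FLC.

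**Figure D1:**
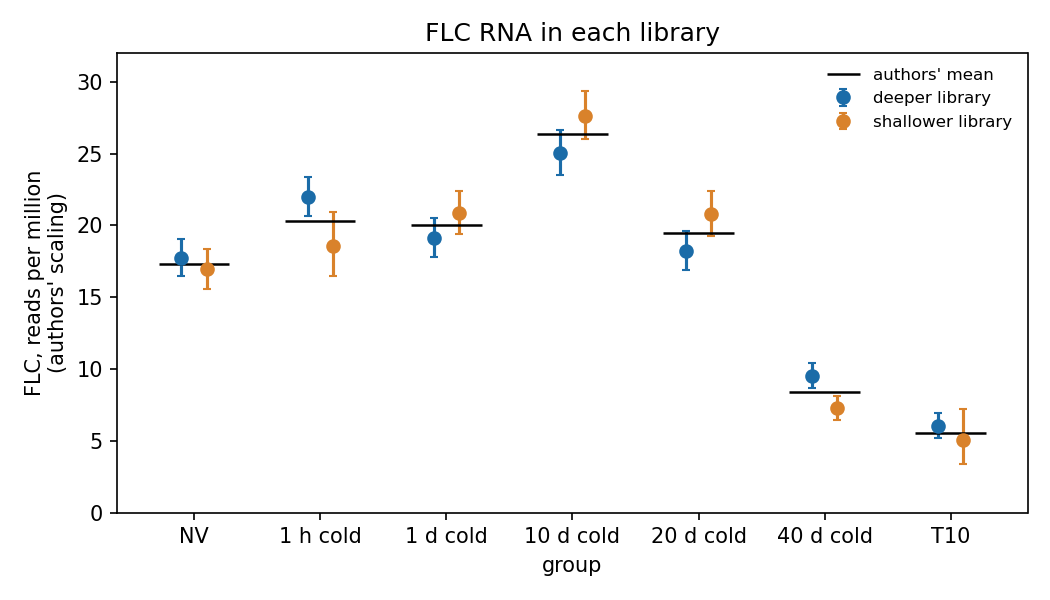
FLC RNA in RPM on the authors' scaling (linear axis from 0) for the 2 libraries of each of the 7 groups; points are libraries, bars are 95% Poisson intervals of the FLC reads (counting error only), and the line is the authors' deposited mean. Both libraries of 10 d sit above all others, and those of 40 d and T10 sit below all others.

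Fitted with limma's voom method over 14 libraries and adjusted by Benjamini-Hochberg over 18766 genes, the fall at 40 d was −1.05 (SE 0.18, adjusted p = 0.000909), a level of 0.482 times NV. FLC was among the 3440 genes (18.3%) that fell at that time. At T10 the change from NV was −1.57 (SE 0.23, adjusted p = 0.000603 by limma), a level of 0.337 times NV, and 10.7% of all genes fell in that comparison. Both falls passed the test in all 14 fits that each left out 1 library, with ranges of −1.26 to −0.87 and −1.76 to −1.52.

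Between neighbouring times, 1 step passed the test. From 20 d to 40 d FLC fell by 1.22 (SE 0.18, adjusted p = 0.00840 by limma), when only 107 of 18766 genes fell (0.57%) and FLC was 88th of them in the size of the fall. Without the deeper or the shallower 20 d library, or without the deeper 40 d library, the adjusted p of that step rose to 0.0747, 0.0837 and 0.0804, with changes of −1.31, −1.12 and −1.42. From 40 d to T10 FLC changed by −0.52 (SE 0.24, adjusted p = 0.137 by limma), so a further fall after the return was not resolved, although the libraries of the 2 groups did not overlap.

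The rise at 10 d was 0.60 (SE 0.17, adjusted p = 0.0186 by limma), a level of 1.52 times NV, and 13.2% of all genes rose at that time. It was lost without the shallower NV library (0.57, adjusted p = 0.0509), without the deeper 10 d library (0.67, adjusted p = 0.0644) and without the shallower 10 d library (0.53, adjusted p = 0.129). The step from 1 d to 10 d was 0.40 (SE 0.17, adjusted p = 0.116 by limma) and that from 10 d to 20 d was −0.44 (SE 0.17, adjusted p = 0.305 by limma). At 1 h, 1 d and 20 d the changes from NV were 0.24, 0.20 and 0.16 (SE 0.17 each), with adjusted p of 0.813, 0.403 and 0.501 by limma.

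Of the 2480 genes that rose at 10 d, 51 had fallen below NV at 40 d, and 15 were also below NV at T10. Of all 18766 genes 18.3% were below NV at 40 d, and 1080 genes were below it at both times. FLC was 1 of the 15, and AHL22, which encodes an AT-hook DNA-binding protein, was another. Of the 107 genes that fell between 20 d and 40 d, 52 were below NV at both 40 d and T10, FLC included. The step from 20 d and the change from NV share the 40 d libraries, so part of that overlap is built in. These numbers are a description of the pattern and not a test of it.

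Reads of FLC cannot be told apart here from those of its antisense transcripts. RefSeq lists a long non-coding RNA gene, AT5G01675, that overlaps FLC and is not analysed here, and the strand setting of the count is not given in the sources used here. Whether antisense reads entered the FLC values was not tested.

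The libraries differ in ways the groups do not explain. They held 3.17 to 21.5 M reads in the split genes, with the shallower T10 library lowest. Across genes, which are not independent replicates, r was 0.950 between the NV libraries but 0.970 between the deeper one and the shallower library of 1 h. It was 0.9675 between the shallower NV library and the deeper one of 1 h. These 2 groups are thus not told apart by likeness over all genes. The fit had no term for a difference that runs across both groups. A list of 9 root marker genes, 8 of them measured, summed to 57.9 and 44.3 RPM in the NV libraries, 68.4 and 62.8 at 1 h, 79.5 and 76.2 at 1 d, 38.1 and 42.1 at 10 d, 35.7 and 35.9 at 20 d, 23.7 and 21.4 at 40 d and 19.3 and 18.03 at T10. At 1 d 3 of these 8 rose, against 13.8% of all genes. At 40 d 4 fell, against 18.3%, and at T10 5 fell, against 10.7% (0 without the deeper T10 library), among them the root hair genes EXPA18 (−5.36 at 40 d) and EXPA7 (−3.85) and the endodermis gene CASP1 (−4.70), with a list median of −2.26 at 40 d beside −0.00 over all genes. The measured members not called at 40 d were RHD6 (−1.24), SHR (−0.58), PLT1 (−0.05) and SCR (0.49). Their adjusted p were 0.0968, 0.0758, 0.958 and 0.0875 by limma, so the list did not fall as a whole. WOX5 was the member not listed. The root sum was below NV at 10 d and 20 d, when FLC was not. Its part in the fall of FLC was not tested. Of the shoot markers, KNAT1, a meristem gene, rose by 1.19 at 40 d (adjusted p = 0.00506 by limma; 0.0733 without the deeper NV library), and of 4 green leaf genes LHCB1.1 rose by 1.87 and CA1 fell by 3.49 at 40 d. None of 4 flower organ genes was listed in the table.

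H3K27me3 appeared over FLC during the cold. No H3K27me3 peak touched the gene in either NV library. At 40 d peaks covered 5351 bp of the gene in replicate 1 and 936 bp in replicate 2, which is 88.2% and 15.4% of its 6067 bp. At T10 they covered 5726 bp (94.4%) and 3067 bp (50.6%). Every library of 40 d and of T10 thus had a peak where neither NV library had one. The T10 libraries were each above the 40 d library of the same replicate number, but the ranges of the 2 groups overlapped.

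The covered length at 40 d exceeded NV by 3144 bp on average (n = 2 per group), and that at T10 by 4397 bp. Replicate 1 and replicate 2 differed by more than the groups of 40 d and T10 did, and with 2 against 2 an exact permutation test cannot go below a two-sided p of 0.333. Over 27444 protein-coding nuclear genes, both libraries exceeded both NV libraries by at least 10 percentage points of gene length in 229 genes at 40 d (0.834%) and in 351 at T10 (1.28%), and FLC was in both sets. With a gap of 25 points FLC passed at T10 but not at 40 d. Among the 7332 genes with an H3K27me3 peak in any library these shares are 3.12% and 4.79%. By the 10-point rule only 14 genes were lower at 40 d (0.051% of all) and 9 at T10 (0.0328%). All H3K27me3 peaks together covered 12.3 Mb at NV, 17.4 Mb at 40 d and 16.6 Mb at T10 in replicate 1. In replicate 2 they covered 8.36, 10.4 and 9.42 Mb. Peaks thus covered more of the genome at both times, and not of FLC alone. Within each replicate number both later libraries were also deeper than that of NV, and the part of depth in this wider cover was not tested.

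At 40 d the strongest H3K27me3 signal lay at the 5′ end of FLC, while the extent of the mark differed between the libraries. The gene lies on the minus strand, so its 5′ end has the higher coordinate. The replicate 2 library had a single peak, at chr5:3178513-3179666 (TAIR10), with its summit 198 bp into the gene, covering 46.3% of the 5′-most of 3 equal parts and none of the middle and 3′ parts. In replicate 1 the strongest peak, at chr5:3176232-3180126, had its summit 105 bp into the gene, and a weaker one followed at chr5:3174025-3176158. Together they covered 100% of the 5′ part, 96.4% of the middle part and 68.2% of the 3′ part. Both libraries of 40 d had their strongest H3K27me3 signal within 198 bp of the start.

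At T10 the strongest signal lay 693 and 1952 bp into the gene. Replicate 1 had 1 peak over almost the whole gene, at chr5:3173723-3179885, with its summit 693 bp from the 5′ end. Replicate 2 had 3 peaks, at chr5:3178122-3179460, chr5:3177025-3178056 and chr5:3174988-3175695, and the strongest, the middle one, had its summit 1952 bp from the 5′ end. The 5′, middle and 3′ parts were covered by 100%, 100% and 83.1% in replicate 1 and by 96.8%, 34.3% and 20.6% in replicate 2. Both T10 summits were further from the start than both 40 d summits. In T10 replicate 2 the middle and 5′ peaks differed little in height (2.93 and 2.51 fold over local background). The summit of that 5′ peak lay 641 bp into the gene. The covered shares of the middle and 3′ parts overlapped between the groups, and the 3′ cover in T10 replicate 2 rested on 1 peak with −log10 q of 8.57. In replicate 1 a separate peak also lay upstream of FLC at both times, at chr5:3180617-3181530 at 40 d and chr5:3180443-3181700 at T10, and replicate 2 had none there.

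**Figure D2:**
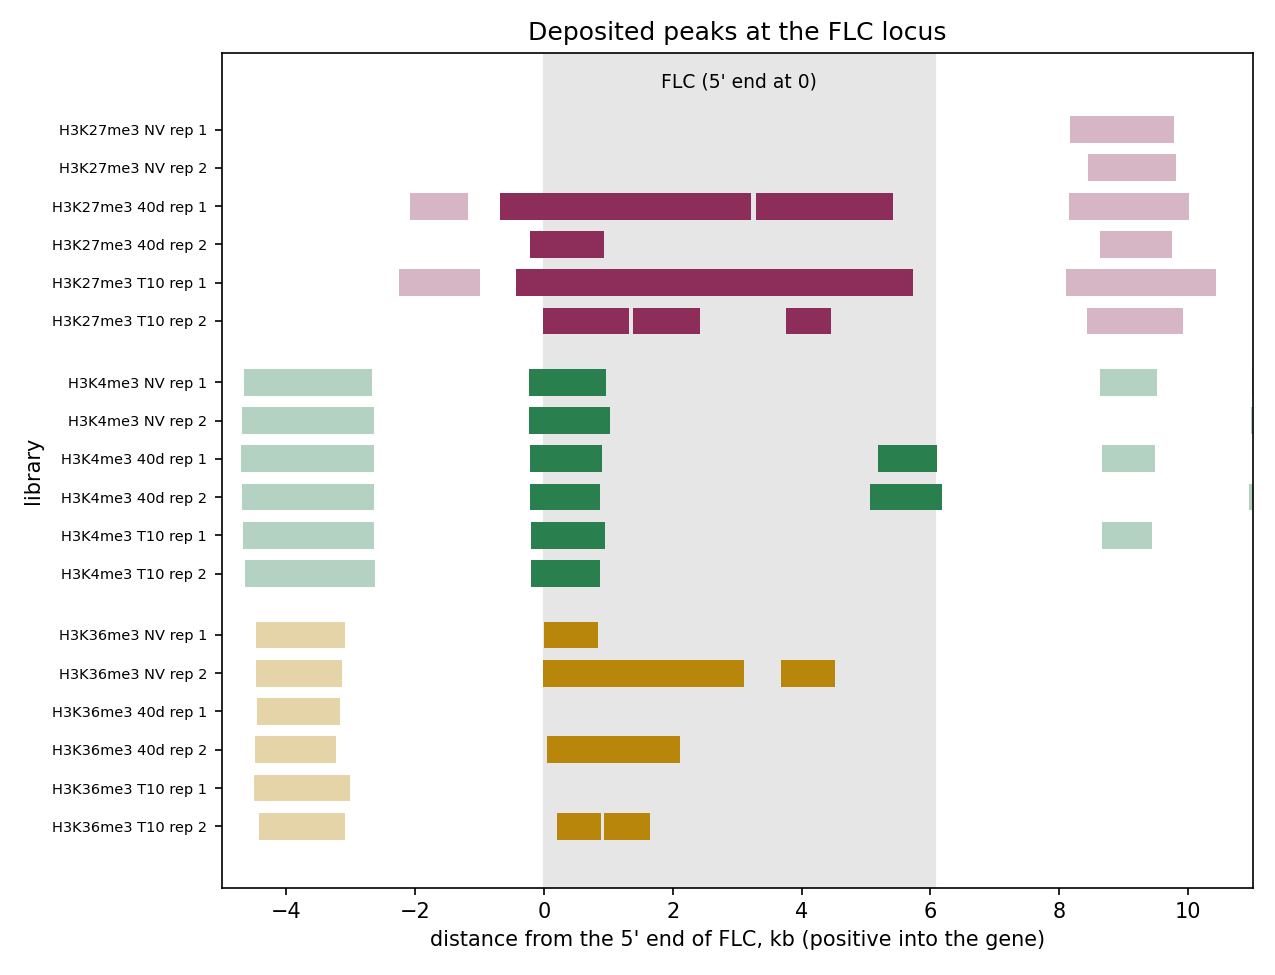
Deposited peaks around FLC in each of the 18 ChIP-seq libraries, by distance in kb from the 5′ end of the gene (positive into the gene, which is shaded); dark bars touch FLC and pale bars do not. H3K27me3 bars over FLC are in the 40 d and T10 libraries and in neither NV library, and an H3K4me3 bar at the 3′ end is in both 40 d libraries and no other.

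Depth differed between these libraries. The H3K27me3 libraries held 6.01 and 3.42 M filtered tags at NV, 15.6 and 3.86 M at 40 d and 12.1 and 6.60 M at T10. At 40 d and at T10 the deeper library had the longer peaks over the gene, and the part of depth in the difference between replicates was not tested. The replicate 2 library of 40 d, with 3.86 M tags, had a peak over FLC, while the replicate 1 library of NV, with 6.01 M, had none. Within each replicate number, however, both later libraries were deeper than that of NV. The part of depth in the difference from NV was not tested.

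Within each library, FLC can be set beside AT5G10120, a neighbouring gene covered by H3K27me3 in all 6 libraries (68.7% to 100% of its length). In the NV libraries AT5G10120 had summits of 4.61 and 5.02 fold over local background and FLC had no peak. At 40 d the FLC summit pileup was 111% and 91.9% of that of AT5G10120, and at T10 it was 106% and 83.7%. In all 4 libraries with the mark, FLC therefore reached a height near that of a gene marked before the cold.

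Few genes without an H3K27me3 peak at NV passed the 10-point rule at both 40 d and T10. Of 27444 genes, 21688 had no peak in either NV library. Of these, 24 (0.0875% of all genes) exceeded NV at both times, FLC included. With T10 taken by itself, 100 of them exceeded NV. By the less covered of the T10 libraries, 51 had at least the share of FLC, FLC itself included. The 24 included the MADS-box genes AGL59 and AGL92. The RNA table listed 8 of the 24. FLC and AT5G11230 (−1.26, adjusted p = 0.00449 by limma) fell at T10 and none rose, against 10.7% and 13.7% of all genes. With 8 genes, FLC among them, these counts are a description.

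H3K4me3 stayed at the start of FLC and was also found at its other end at 40 d. A 5′ peak was present in all 6 libraries, from chr5:3178477-3179676 in NV replicate 1 to chr5:3178573-3179652 in T10 replicate 2, with summits 279 to 379 bp into the gene. A further peak lay over the 3′ end at 40 d, at chr5:3173347-3174258 in replicate 1 and chr5:3173267-3174387 in replicate 2, with summits 5656 and 5643 bp from the 5′ end. No NV or T10 library had a peak there. Both 40 d libraries share the same input control, and its part in this peak was not tested.

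The covered length was 972 and 1022 bp at NV, 1782 and 1877 bp at 40 d and 945 and 876 bp at T10. The 40 d libraries lay above all 4 others, and the T10 libraries lay just below those of NV. The mean difference was 833 bp at 40 d from NV and −919 bp from 40 d to T10, with SDs within a group of at most 67.2 bp (n = 2). The H3K4me3 share was higher at 40 d by this rule in 681 genes (2.48%), and lower at T10 than at 40 d in 612 (2.23%), with FLC in both sets at a gap of 10 percentage points and in neither at 25. From NV to T10 it changed by −86.5 bp, which is under 10 percentage points of the gene's length, and FLC was not among the 132 genes (0.481%) that were lower. These libraries held 20.1 to 37.0 M filtered tags, and the T10 libraries were the deepest of each replicate number.

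The 3′ peak was weak beside the 5′ peak of the same library in replicate 1 (2.16 against 3.36 fold over local background) and of like height in replicate 2 (3.04 against 3.11). Of 15568 H3K4me3 peaks of the first 40 d library that overlapped one of the second, 140 (0.899%) overlapped no peak of the other 4 libraries, and the FLC 3′ peak was 1 of these. Its fold in replicate 1 was close to their median of 2.08, and 59 of the 140 were higher. The antisense transcripts of FLC are known to start near this end of the gene.

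The height of the 5′ peak can be set beside that of AT5G10150, the next gene upstream of FLC, which peaks covered over 91.5% to 93.5% of its length. The FLC summit pileup was 70.0% and 72.4% of it at NV, 69.4% and 52.6% at 40 d and 71.3% and 73.4% at T10. The replicate 2 library of 40 d stood below the other 5, which ran from 69.4% to 73.4%. At T10, with FLC RNA at 0.337 times NV, the relative height of the 5′ H3K4me3 peak was close to that at NV in both libraries.

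**Figure D3:**
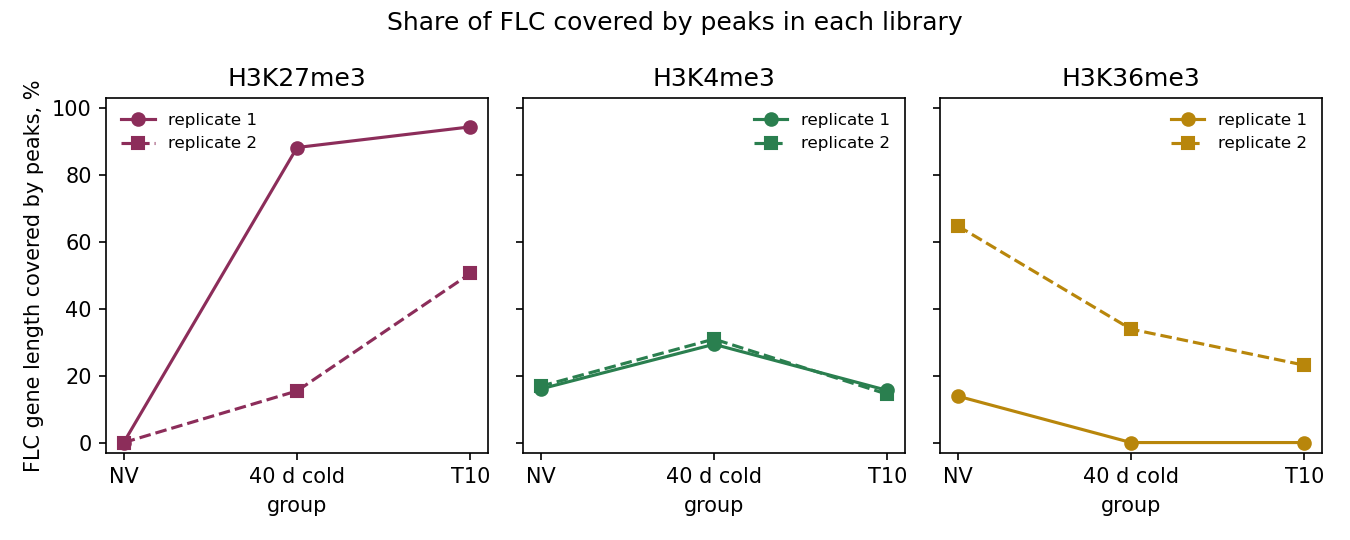
Share of the FLC gene length covered by peaks (%, axis from 0) for each mark at NV, 40 d and T10; lines join libraries of the same replicate number, which the labels do not say are paired. H3K27me3 goes from 0 in both NV libraries to 94.4% and 50.6% at T10, H3K4me3 is highest at 40 d in both replicates, and H3K36me3 is lower at 40 d and T10 than at NV within each replicate number while the groups overlap.

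H3K36me3, the mark of transcribed gene bodies, covered 842 and 3930 bp of FLC at NV, 0 and 2057 bp at 40 d and 0 and 1403 bp at T10. Within each replicate number the 40 d and T10 libraries were below NV, but the groups overlapped because replicate 2 was above replicate 1 throughout. The mean differences from NV were −1358 bp and −1685 bp, smaller than the SD of 2184 bp within NV (n = 2), so a loss was not resolved with all deposited peaks. With only peaks of −log10 q of at least 10, both T10 libraries had none over FLC, against 842 and 3101 bp at NV, and FLC passed as lower at T10 (−1972 bp), while 40 d still overlapped NV. The T10 peaks so removed, both in replicate 2, had −log10 q of 4.07 and 5.49. At this q 568 of 27444 genes differed between T10 and NV in either direction, against 615 with all peaks. By the rule of both libraries beyond both others, 1.69% of genes were lower at 40 d and 1.69% at T10 with all peaks, and FLC was not among them. The replicate 2 libraries held 16.7 to 23.3 M tags and those of replicate 1 held 8.49 to 16.1 M. The replicate 1 libraries of NV and 40 d held 15.3 and 16.1 M, and FLC had a peak in the first and none in the second. The T10 libraries held 8.49 and 16.7 M, the fewest of each replicate number. The part of depth in these differences was not tested.

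Each library with this mark over FLC had a peak that began at most 0.211 kb from the 5′ end, and NV and T10 replicate 2 had a second one behind it. In NV replicate 2 the mark covered 100% of the 5′ part, 71.1% of the middle part and 23.2% of the 3′ part, and at T10 it was found in the 5′ part alone (69.4%). Set beside AT5G10110, a neighbour covered in all 6 libraries, the FLC summit pileup was 53.1% and 67.2% at NV, 41.1% at 40 d and 40.3% at T10 in the libraries that had a peak. The 2 libraries with a peak after cold both lay below both NV libraries in this ratio.

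**Figure D4:**
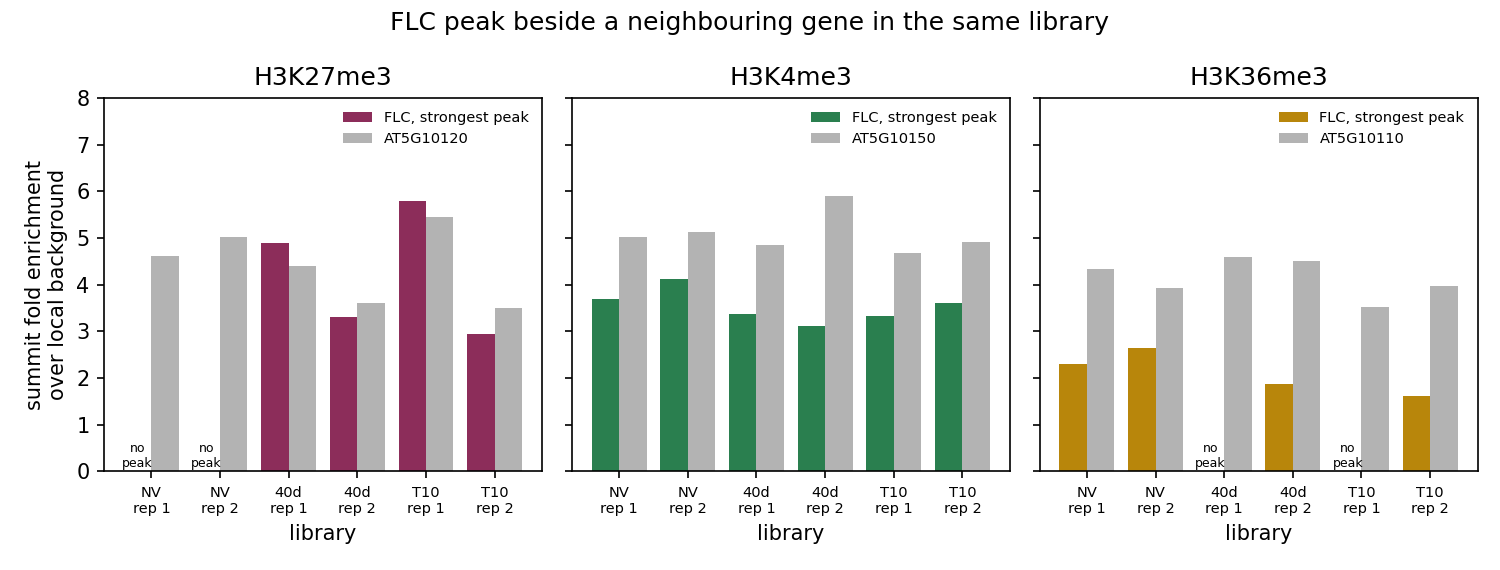
Summit fold enrichment over local background (axis from 0) of the strongest FLC peak and of a neighbouring gene in the same library, for each mark and library; values are the authors' and are to be compared within a library. H3K27me3 at FLC goes from no peak at NV to a height near that of AT5G10120, while the 5′ H3K4me3 peak stays below AT5G10150 in all 6 libraries.

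None of the 6 protein-coding neighbours within 10 kb had a chromatin change that passed the rule for any mark. In RNA, 5 of them were listed, and differences between their changes and that of FLC were not tested. AT5G10150, known to lie upstream, passed no test in any comparison, and at T10 its change was 0.58 (adjusted p = 0.119 by limma) where that of FLC was −1.57. AT5G10110 also passed none. AT5G10160 fell at 10 d (−0.69), 20 d (−0.58) and 40 d (−0.60), and each of these calls was lost without 1 of several libraries (adjusted p up to 0.0994, 0.172 and 0.119). MIPS3, an enzyme of inositol synthesis, fell at 10 d (−2.40, adjusted p = 0.0136 by limma; 0.0915 without the shallower 10 d library).

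AT5G10130, the next gene downstream of FLC at 680 bp, fell before FLC did. Its libraries held 5.01 and 8.67 RPM at NV, 6.45 and 5.85 at 1 h and 12.1 and 11.8 at 1 d. They held 0.914 and 1.86 at 10 d, 1.23 and 1.05 at 20 d, 0.116 and 0.244 at 40 d, and 0.503 and 2.77 at T10. The libraries from 10 d onwards all lay below those of the first day. The change from NV was −2.31 at 10 d (SE 0.43, adjusted p = 0.00216 by limma), when FLC had risen and 14.5% of all genes fell, and −5.22 at 40 d (SE 0.84, adjusted p = 0.000651 by limma). At T10 it was −3.16, a call that was lost without the deeper T10 library (−1.19, adjusted p = 0.423). H3K27me3 peaks covered at most 5.78% of this gene in any library.

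**Figure D5:**
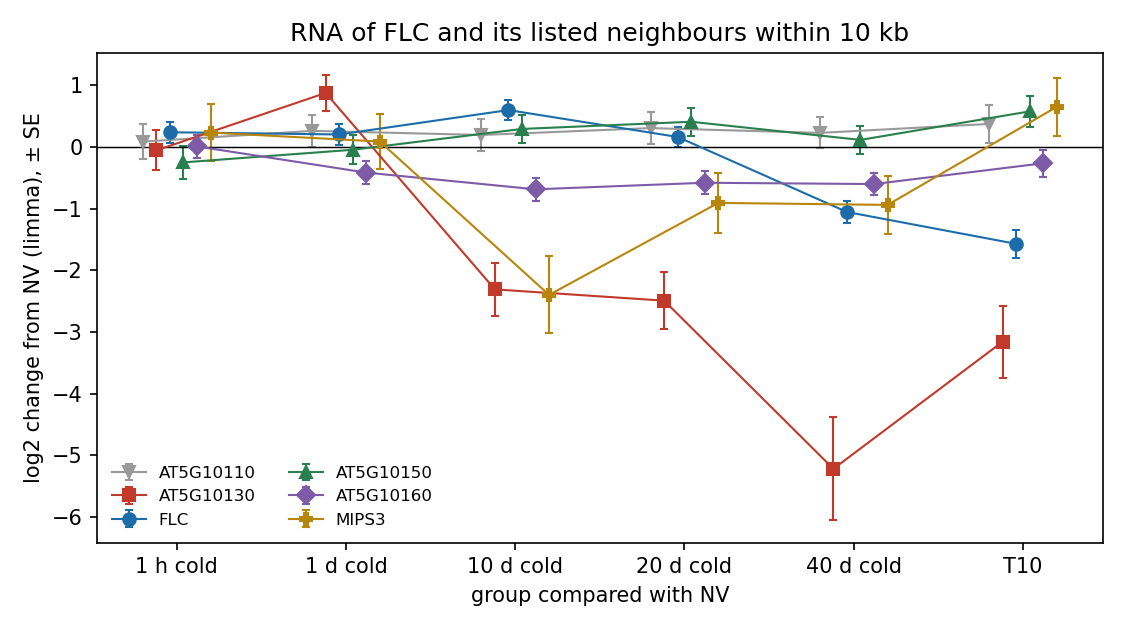
Fitted log2 change from NV (limma) of FLC and its listed neighbours within 10 kb at each cold time and at T10; bars are ± 1 SE and lines join the groups. FLC rises at 10 d and then falls to −1.57 at T10, AT5G10130 falls from 10 d on, and AT5G10150 stays between −0.25 and 0.58.

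Among genes that FLC is known to act on, or that share its targets, 3 of 4 measured members of a list of 7 rose at 40 d and 1 fell, against 16.5% and 18.3% of all genes. At T10, 3 rose and none fell, against 13.7% and 10.7%. The median change was 1.33 at 40 d and 2.00 at T10, beside −0.00 and −0.03 over all genes. SOC1, a MADS-box promoter of flowering that FLC represses, was at 0.0473 and 0.47 RPM at NV, 8.58 and 10.1 at 40 d and 13.9 and 10.4 at T10. Its libraries at 40 d and T10 lay above all of NV and the first day. The change was 5.89 (SE 0.86, adjusted p = 0.00034 by limma) at 40 d and 6.37 (SE 0.87, adjusted p = 0.000354) at T10. The NV libraries held only 2 and 16 SOC1 reads, so the size of these changes rests on a baseline near the floor. SOC1 had risen already at 1 d (3.89, adjusted p = 0.00748 by limma) and at 10 d (4.33, adjusted p = 0.00330), when FLC was not below NV.

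SVP, which encodes the partner of FLC in repression, rose by 1.08 at 40 d (adjusted p = 0.00577 by limma) and by 2.11 at T10 (adjusted p = 0.000167), from 20.6 and 14.4 RPM at NV to 85.4 and 63.3 at T10. FD, a bZIP partner of the florigen, rose by 1.57 and 1.89, calls that were lost without the deeper NV library (adjusted p = 0.254 and 0.167) and without either later library. TEM1, another floral repressor, fell by 1.52 at 40 d (adjusted p = 0.0656 without the deeper 40 d library) and at T10 its change was −0.23. Without single libraries the list had 2 or 3 members that rose at either time. The H3K4me3 share of SOC1 rose from 20.6% and 25.2% at NV to 38.4% and 35.5% at T10, and that of SVP from 22.6% and 27.2% to 47.8% and 48.6%, both past the rule for that comparison, which 414 genes (1.51%) passed.

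Of 13 proteins that silence FLC, 12 were measured, 3 rose at 40 d and none fell, against 16.5% and 18.3% of all genes, with a median of 0.20. VIN3, the cold-induced protein that starts silencing, was at 2 and 0 reads at NV and at 0 in both 1 h libraries. It stood at 0.05 and 0.332 RPM at 1 d, 1.40 and 0.876 at 10 d, 1.58 and 1.86 at 20 d and 3.14 and 5.92 at 40 d. At T10 it was back to 0.629 RPM (20 reads) and 0. Its libraries were above those of the first day at 10 d and highest at 40 d (adjusted p = 0.00282 against NV by limma), when FLC RNA was falling. The H3K4me3 share of VIN3 was 27.8% and 0% at NV, 54.9% and 49.97% at 40 d and 34.9% and 0% at T10, higher at 40 d and lower at T10 by the rule.

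CLF and SWN, the 2 alternative methyltransferase subunits of PRC2, rose by 1.84 (adjusted p = 0.000275 by limma) and 1.28 (adjusted p = 0.00236) at 40 d. At T10 CLF was at −0.23 (adjusted p = 0.662 by limma), and SWN stood 1.77 above NV (adjusted p = 0.000739). MSI1, a WD40 subunit, fell by 0.84 at T10 (−0.69 and adjusted p = 0.223 without the deeper T10 library). VRN2, the PRC2 subunit tied to vernalization, changed by −0.17 at 40 d and by −0.15 at T10, and VRN5, which acts beside VIN3, by −0.03 and 0.01, with no call in either. At T10 1 of the 12 rose and 1 fell, against 13.7% and 10.7% of all genes.

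All 15 activators of FLC were measured, and none passed as lower at 40 d or T10, when 18.3% and 10.7% of all genes fell. ATX1 was not called, but its libraries lay below both NV libraries at both times. It stood at 5.25 and 6.17 RPM at NV, 3.67 and 3.36 at 40 d and 3.05 and 1.39 at T10. At 40 d 3 of the 15 rose, near the 16.5% of all genes, with a list median of 0.46. At T10 4 rose, against 13.7% of all genes, with a median of 0.38. PIE1, an ATPase that deposits the histone variant H2A.Z, rose by 1.06 at 40 d (adjusted p = 0.00415 by limma) and by 1.11 at T10 (adjusted p = 0.00728). SWC6, of the same complex, rose by 1.08 at 40 d, and ATXR7, an H3K4 methyltransferase, by 0.81. SDG8, the main H3K36 methyltransferase, rose by 1.27 at T10, beside FES1 (1.08), of the FRI complex, and VIP4 (1.07), of the Paf1 complex. Leaving out single libraries gave 1 to 3 members that rose at 40 d and 0 to 6 at T10, with 0 at T10 without the deeper NV library, and at most 1 that fell. FRI itself changed by −0.05 at 40 d and by 0.16 at T10, with adjusted p of 0.898 and 0.723 by limma.

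Of 4 H3K27 demethylases, 2 rose at 40 d and 1 at T10, against 16.5% and 13.7% of all genes. JMJ30 stood 3.63 above NV at 40 d (adjusted p = 0.000987 by limma), and at T10 it had 2 and 0 reads. REF6 rose by 0.72 and 0.93, calls lost without the deeper NV library among others. In the autonomous pathway, whose members lower FLC independently of cold, FLK (0.72) and FLD (0.57) rose and FCA (−0.74) and FPA (−0.63) fell at 40 d out of 7 measured, against 16.5% and 18.3% of all genes, and none was called at T10. FLK was the least and FLD and FCA the most often lost, without 3, 10 and 11 of the 14 libraries, while FPA was kept in all.

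None of FLC's closest relatives that were measured passed as lower. Of the 5 genes of its clade (FLM and MAF2 to MAF5) 4 were measured, 2 rose at 40 d and 1 at T10, and none fell, with a median of 0.75 at 40 d. Of all genes 16.5% rose and 18.3% fell at 40 d, and 13.7% and 10.7% at T10, so with 4 genes these counts are a description. MAF3 rose by 0.87 at 40 d (adjusted p = 0.00485 by limma), after 1.29 at 10 d, and was 0.24 above NV at T10 (adjusted p = 0.508). MAF2 rose by 0.80 and 1.05, calls lost without the deeper NV library (adjusted p = 0.207 and 0.107). MAF5 was the member not listed. H3K27me3 cover at 40 d was above NV in the replicate 1 libraries of FLM (0% to 16.0%), MAF3 (0% to 23.6%), MAF4 (29.7% to 69.8%) and MAF5 (26.7% to 68.7%). At T10 these stood at 41.6%, 34.3%, 77.8% and 76.2%. In replicate 2 all 4 were at 0% at each time, except MAF5 at T10 (25.1%), so none of the 5 passed the rule that FLC passed, and MAF2 had no H3K27me3 peak. MAF5 gained H3K4me3, from 0% in both NV libraries to 13.6% and 14.4% at 40 d.

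Among 10866 genes with a mean of at least 5 RPM, the RNA of 8 genes followed FLC most closely over the 14 libraries. The measure was Pearson's r of log2(RPM + 0.5), and the points share libraries of 7 groups, so r is a description. The highest were AT3G06590 (0.946), which encodes the transcription factor RITF1, AHL22 (0.944), RGP5 (0.937), AT5G58300 (0.934), the auxin influx carrier AUX1 (0.931), APRL7 (0.927), APG8A (0.914), of autophagy, and the AT-hook gene AT5G62260 (0.912). The 95th percentile over all genes was 0.715.

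AHL22 shared the high at 10 d and the low at 40 d and T10. It stood at 14.2 and 13.0 RPM at NV, 13.2 and 15.8 at 1 h, 20.9 and 24.1 at 1 d, 25.5 and 25.0 at 10 d, 17.2 and 17.3 at 20 d, 8.72 and 8.40 at 40 d and 6.38 and 3.99 at T10. As with FLC, its 40 d and T10 libraries lay below all others and its 10 d libraries above all others, but AHL22 had also risen at 1 d (0.72, adjusted p = 0.00727 by limma), when FLC had not passed the test. The lowest correlations were those of PnsL1 (−0.937), a subunit of the chloroplast NDH complex, of LSU2 (−0.936) and LSU1 (−0.935), which respond to low sulfur, and of BGLU28 (−0.933), a beta-glucosidase. BGLU28 rose from 0.993 and 2.85 RPM at NV to 23.7 and 19.8 at 40 d and to 120.0 and 137 at T10. By the 7 deposited group means 3 of the 8 closest genes were the same and 0 of the 4 lowest.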

How the data were processed

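The deposited RNA signal is normalised read counts that the authors averaged over the 2 libraries of a group, not divided by gene length; TopHat, edgeR and TAIR10 are named in the submitters' processing notes, without settings. Per the file headers, MACS 2.1.1.20160309 called peaks separately in every library, with the matching input as control. Positions, pileup signal, fold enrichment ratio and −log10 q-value are as deposited. There were 3 input libraries, those of NV, 40 d and T10, with 19.5, 20.6 and 12.2 M filtered tags. All marks and both libraries of a group share the same input. A difference in peaks between groups therefore cannot be told apart from a difference between their inputs.

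Each average was a sum of whole multiples of 2 steps, and 99.9467% to 99.9787% of values per column could be split in 1 way only, at a relative tolerance of 1e-12. The reads of 18766 genes so recovered were fitted with limma 3.58.1 (voom, the authors' scaling, all 14 libraries), adjusted over all genes at 0.05. Splitting and fitting were tested on simulated data.

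The RefSeq gene table (TAIR10.1) gave names and gene spans; the best shift against the peaks was 0 bp, in steps of 100 bp. A covered share differed where both libraries of a group exceeded both of the other by 10 percentage points. FLC and the gene lists were chosen with earlier results of these data known. Named list genes were up to 4 called members of each list per time, by size of change at 40 d and T10, beside the neighbours within 10 kb and the 8 and 4 genes of extreme correlation. SCR, PLT1, RHD6, ATX1, VRN2, VRN5, FRI, AT5G11230, AGL59, AGL92 and MAF4 and MAF5 were named after their values were seen.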

Additional observations from a re-analysis of the deposited data

How the results depend on the processing

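The falls of FLC RNA at 40 d and T10 against NV kept their direction and passed the test under every scaling, filter and fit tried; the averages alone give the direction and no test. With the 2 groups fitted alone, the FLC change at 10 d against NV missed the threshold (0.60, adjusted p = 0.0663 by limma), and those from 1 d to 10 d (0.40, adjusted p = 0.00242) and from 10 d to 20 d (−0.44, adjusted p = 0.00326) passed it; without weights, that from 40 d to T10 passed it (−0.58, adjusted p = 0.0390). The cause was not tested. Leaving out 1 library moved the FLC change at 10 d against NV between 0.53 and 0.67 and that from 20 d to 40 d between −1.42 and −1.03; the change from 1 h to 1 d ran from −0.14 to 0.10 and reversed without the deeper 1 h library (0.10) and the deeper 1 d library (0.03). Of 50 calls named for list members and neighbours, 21 held in all 14 such fits.

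Counts of genes called depended on the fit. Against NV at 1 h, 1 d, 10 d, 20 d, 40 d and T10 they were 0, 2842, 3464, 3464, 3978 and 2202 with the 2 groups alone, and 207, 2300, 2520, 2540, 2874 and 2952 for averages past 2-fold with a pseudocount of 1. From 1 h to 1 d, 1 d to 10 d, 10 d to 20 d and 20 d to 40 d they were 790, 9153, 3825 and 1139 alone, and 2169, 1540, 302 and 357 by averages, with 2899 from 40 d to T10. With a pseudocount of 0.1 they were 583 at 1 h, 881 from 10 d to 20 d and 1122 from 20 d to 40 d; without weights 101 and 267 for the last 2; and 25 at 1 h by median-of-ratios scaling. Leaving out 1 library gave 2 to 324, 2096 to 6313, 2456 to 6665, 2400 to 6776, 3801 to 7950 and 1482 to 6079 against NV, 1359 to 4640, 1133 to 4908, 9 to 515 and 0 to 489 between neighbouring cold times, and 1776 to 5656 from 40 d to T10. At 1 h, 16 genes were called (1503 at an unadjusted p under 0.05).

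With a gap of 25 percentage points, the genes that differed in covered share at 40 d against NV, T10 against NV and T10 against 40 d numbered 93, 145 and 16 for H3K27me3, 716, 239 and 786 for H3K4me3 and 235, 246 and 277 for H3K36me3. With peaks of −log10 q of at least 10, the H3K27me3 count of T10 against 40 d was 33 in place of 60. With the gap of 25 percentage points FLC itself no longer passed for H3K27me3 at 40 d or for H3K4me3 in either comparison with 40 d, and it still passed for H3K27me3 at T10. With the stricter q, H3K36me3 over FLC passed as lower at T10 than NV (−1972 bp), and from 40 d to T10 it changed by −1029 bp in place of −327 bp. For this mark the T10 libraries were the shallowest of each replicate number. The H3K4me3 length over FLC from 40 d to T10 moved to −1006.5 bp in the fixed window and to −1002 bp with 1000 bp added on each side, and ran from −1001 to −837 bp without a replicate number; that from NV to T10 ran from −146 to −27 bp. Taken as a replicate block, the differences were the same by construction (3143.5 and −919 bp, for example), and the labels do not say that replicate numbers pair the ChIP libraries. No paired analysis was possible for RNA because the averages carry no replicate numbers. The list of genes most like FLC shared 3 of 8 with that by group means.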
